A study of Mus musculus with 6 samples.

Results

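The genes described here are 8 NK-type receptor genes measured in mouse CD8+ T cells: *Klrk1*, *Klrd1*, *Klrc1*, *Klrc2*, *Klrg1*, *Klrb1c*, *Ncr1* and *Nkg7*. They were chosen by name, and each name matched 1 gene of the 54446 genes in the files. RNA-Seq was performed on 6 libraries of splenic CD8+ T cells from wild-type C57BL/6 mice 8 weeks of age, 2 libraries for each of 3 groups. The Unstimulated group was fresh cells, the Control group was cells stimulated for 72 h on plates coated with antibodies to CD3 and CD28 and kept without magnets, and the SMF group was cells stimulated in the same way for 72 h on magnets of 0.3 T, a moderate static magnetic field (SMF). The cells of all 3 groups were enriched by negative selection, which removes other cells with antibodies and leaves CD8+ T cells untouched. The labels do not tie the libraries to separate mice, so every p value here measures the spread between libraries, which may be technical.

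NK-type receptors are surface proteins first described on natural killer (NK) cells that CD8+ T cells also carry once they have met antigen. NKG2D, encoded by *Klrk1*, binds stress-induced ligands and signals through the adaptor DAP10 (*Hcst*) or, in some cells, DAP12 (*Tyrobp*), whereas CD94 (*Klrd1*) pairs with the inhibitory NKG2A (*Klrc1*) or the activating NKG2C (*Klrc2*) and reads the MHC class Ib molecule Qa-1 (*H2-T23*). KLRG1 marks terminally differentiated effector cells, NK1.1 (*Klrb1c*) and NKp46 (*Ncr1*) define NK cells in C57BL/6 mice, and NKG7 is a membrane protein of cytotoxic granules.

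Expression is in FPKM (fragments per kilobase of transcript, scaled to the size of the library), summed here over the transcripts of a gene, so that levels of genes of unlike length can be set beside each other. Depth, as bases covered by reads, lay between 64.4 and 259 Mb per library, and the lowest belonged to Control replicate 1 and Unstimulated replicate 1. The 8 CD8 T cell markers (CD3, CD8 and T cell receptor chains) were above 0 in all 6 libraries, with a summed FPKM of 847 and 1008 (Unstimulated), 509 and 751 in the Control, and 1455 and 1316 in the SMF libraries. The file headers name a dated folder, called a run here, though they do not say that it was a sequencing run. Its month was June 2017 for Unstimulated and Control replicate 1 and November 2017 for Unstimulated and Control replicate 2. For both SMF libraries it was October 2018. SMF libraries thus shared 0 runs with the Control or the Unstimulated libraries. The field, and in SMF against Unstimulated the stimulation too, therefore cannot be told apart from the run.

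Of the 8 genes, 6 had a promoter in the RefSeq table, and the 250 bases before each RefSeq start were searched on both strands for the letters TGTGGT (bound by Runx factors), GGTGTG (the core of the T-box site) and TGANTCA (the AP-1 site), which do not overlap one another here. TGTGGT or its reverse complement ACCACA lay in every window of the 6 (*Klrk1*, *Klrc1*, *Klrc2*, *Klrb1c*, *Ncr1* and *Nkg7*), against 14% of 32851 promoter windows of the same length. *Klrc2* and *Ncr1* had overlapping windows from separate starts, so the count by gene and the share by window are not alike. The *Klrc2* matches and the *Klrb1c* window lay within the span of other annotated transcripts of these genes. GGTGTG lay only in the *Nkg7* window, 13 bases before the RefSeq start and outside the stretch shown, against 16.3% of windows, and TGANTCA in none of the 6, against 6.75%. The upstream sequences of *Klrk1*, *Klrc1* and *Nkg7* are shown 5′ to 3′ on the strand of the gene (GRCm38.p6), with the match in capitals. *Klrk1* is at chr6:129623865-129624114 on the minus strand, *Klrc1* at chr6:129678974-129679223 on the minus strand, and *Nkg7* at chr7:43436888-43437072 on the plus strand. The *Nkg7* stretch ends where the first annotated *Nkg7* exon begins. A match describes these letters alone and is not evidence of binding.
Klrk1: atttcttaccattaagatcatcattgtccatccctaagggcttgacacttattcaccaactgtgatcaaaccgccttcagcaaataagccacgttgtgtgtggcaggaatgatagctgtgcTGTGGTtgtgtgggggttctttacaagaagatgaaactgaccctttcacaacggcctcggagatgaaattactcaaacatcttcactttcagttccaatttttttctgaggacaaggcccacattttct
Klrc1: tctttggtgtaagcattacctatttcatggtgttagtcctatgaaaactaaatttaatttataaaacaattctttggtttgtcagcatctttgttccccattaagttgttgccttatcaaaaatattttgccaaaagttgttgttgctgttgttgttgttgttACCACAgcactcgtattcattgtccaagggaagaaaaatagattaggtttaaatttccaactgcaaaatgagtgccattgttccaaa
Nkg7: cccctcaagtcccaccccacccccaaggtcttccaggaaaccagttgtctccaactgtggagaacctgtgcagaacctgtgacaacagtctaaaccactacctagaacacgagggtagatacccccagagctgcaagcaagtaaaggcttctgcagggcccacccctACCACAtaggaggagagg

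The order of the 8 genes differed between the Unstimulated and the stimulated libraries. Only fresh cells were unstimulated, so stimulation cannot be told apart from 72 h in culture. *Klrk1* was the most abundant in the Unstimulated cells and fell about 5.08-fold in the Control cells, *Klrc1* and *Nkg7* rose, *Klrd1* differed by less than its replicate spread, and *Klrb1c* and *Ncr1* were seen only before stimulation. No member passed the test between SMF and Control. Testing was done with limma on log2(FPKM + 1) for genes whose mean over the 6 libraries reached 1 FPKM, and a gene was called where its fold change reached 2 with an unadjusted p no higher than 0.05, the thresholds of the study, with a Benjamini-Hochberg adjusted p over all tested genes beside it. Of the members 7 passed the filter and *Klrg1* did not. *Klrb1c* and *Ncr1* passed it only through the Unstimulated libraries and had to differ there. The counts below therefore rest on the other 5, which were above 0 in at least 1 library of all 3 groups. *Klrc1* is among them through 1 Unstimulated library (0 and 1.50 FPKM, with 0 over coding exons in both). It passed the filter through the stimulated libraries, so its higher calls were close to fixed in advance.

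In Control against Unstimulated, 3 of these 5 were higher (*Klrc1*, *Klrc2* and *Nkg7*), 1 was lower (*Klrk1*) and 1 was not called (*Klrd1*), beside 12.3% of 14991 tested genes called higher and 12.6% called lower. In SMF against Unstimulated, which uses the same Unstimulated libraries, 2 were higher (*Klrc1* and *Nkg7*), 1 was lower (*Klrk1*) and 2 were not called, beside 22.4% of genes called higher and 14.8% lower. In SMF against Control 0 of the 5 were called, beside 12.5% of genes called higher and 5.72% lower. The median log2 fold change of the 5 was 1.57, 1.02 and 0.19 in the 3 comparisons in that order, and that of all tested genes -0.05, 0.27 and 0.32. By the adjusted p alone, at 0.05 or below, 3 of the 5 (*Klrk1*, *Klrc1* and *Nkg7*) passed in each comparison with the Unstimulated libraries, beside 8.48% of tested genes for Control and 23.6% for SMF, and 0 of the 5 passed in SMF against Control, beside 0.0267%. *Klrc1* passed the filter through the stimulated libraries, so its part in these counts and medians against the Unstimulated group was close to fixed. In Control against Unstimulated the 3 passes rested on all 6 libraries. Leaving out any 1 of them gave an adjusted p of 0.0505 to 0.102 for *Klrk1*, 0.0674 to 0.110 for *Klrc1* and 0.0163 to 0.146 for *Nkg7* with limma, and a fit of the 2 groups alone gave 0.0968, 0.104 and 0.115. In SMF against Unstimulated the ranges without 1 library were 0.0319 to 0.102, 0.0271 to 0.0884 and 0.00861 to 0.0975.

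**Figure D1:**
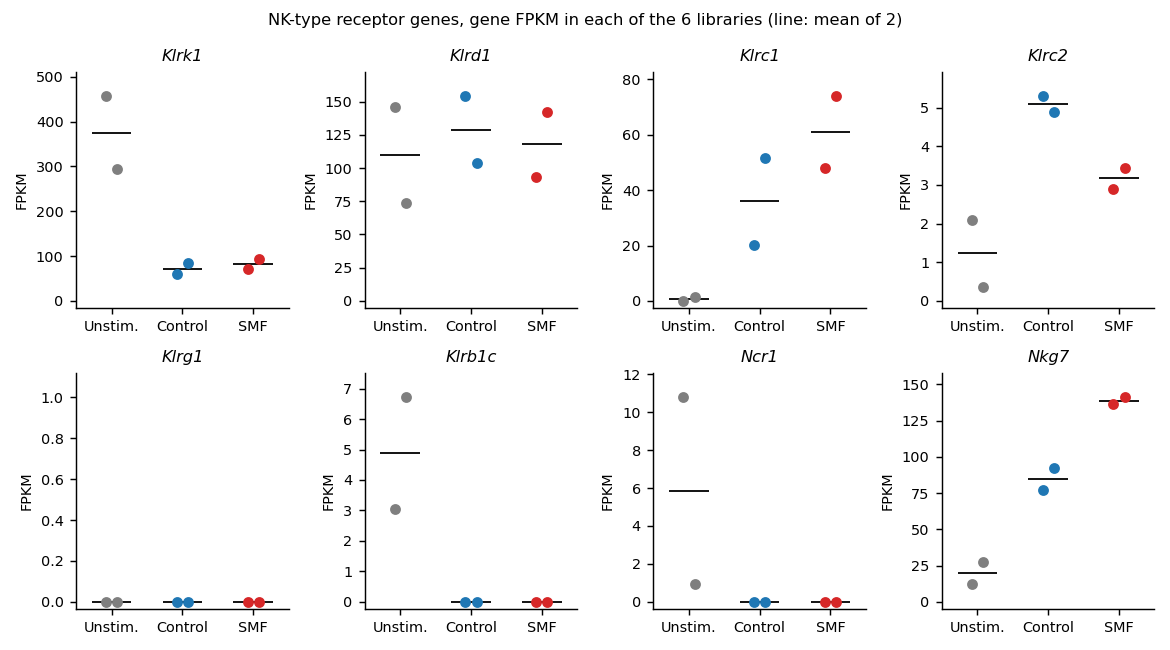
Each panel plots the gene FPKM of one NK-type receptor gene on a linear axis from 0, with a point for each library and a line at the mean of the 2 libraries of a group. *Klrk1* stands highest in the Unstimulated libraries (456 and 295 FPKM), *Klrc1* and *Nkg7* are highest after stimulation, *Klrb1c* and *Ncr1* are listed at 0 in the 4 stimulated libraries, and *Klrg1* is listed at 0 in all 6.

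*Klrk1* (ENSMUSG00000030149.15, chr6:129610323-129623864, minus strand, GRCm38) encodes NKG2D, the activating receptor that lowers the threshold for killing of stressed or transformed cells. Its level was 456 and 295 FPKM in the Unstimulated, 60.5 and 84.2 in the Control and 72.1 and 92.5 in the SMF libraries. The lowest Unstimulated library was 3.19 times the highest stimulated one, and the Control and SMF libraries overlapped. The log2 fold change was -2.35 (SE 0.33, adjusted p = 0.0157 with limma) in Control against Unstimulated and -2.15 (SE 0.33, adjusted p = 0.00972) in SMF against Unstimulated. Within the 2 runs that hold both groups, Control minus Unstimulated was -2.89 for replicate 1 and -1.80 for replicate 2.

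The fall of *Klrk1* was not spread evenly along the gene. The first coding exon, exon 2 of the transcript Klrk1-205 at chr6:129621135-129621242, was deeper after stimulation and not shallower. Its depth, in reads per base for each 100 Mb covered in the library, was 3.04 and 2.13 in the Unstimulated libraries against 11.1 and 13.3 in the Control and 5.69 and 14.6 in the SMF libraries, so every stimulated library lay above both Unstimulated ones. Exon 6 at chr6:129615309-129615460 moved as the gene did, with 17.9 and 28.2 in the Unstimulated, 1.75 and 7.78 in the Control and 0.987 and 4.20 in the SMF libraries. Exon 2 over exons 6 and 7 together gave a ratio of 0.129 and 0.0921 in the Unstimulated, 10.7 and 1.80 in the Control and 5.23 and 3.07 in the SMF libraries. A related ratio, the second exon over the pair before the last, was taken over 525 tested genes. Its median lay between 0.806 and 0.920 in the 6 libraries. It was read from 1 transcript per gene, that with the highest mean FPKM, whereas the *Klrk1* ratio sums all transcripts. Only transcripts of at least 6 exons, with both parts of the ratio above 0 in every library, entered. The median stayed within this range, but the 2 ratios were not measured alike. Exons 7 and 8 were, like exon 6, deepest in both Unstimulated libraries, whereas exons 1 and 5 overlapped between the groups. Exons 3 and 4 were also deepest there, but their depth includes coverage of the retained-intron transcript Klrk1-204. An exon of it that spans both had a mean of 33.8 and 24.1 in the Unstimulated libraries. The order of exons 3 and 4 without that coverage was not tested. Exon 1 was at 0.530 and 0.802 in the Unstimulated, 2.30 and 1.45 in the Control and 0.327 and 0.927 in the SMF libraries, and exon 5 stood at 0 in Unstimulated replicate 1, between 38.4 at exon 4 and 17.9 at exon 6. Such a ratio is a description of 2 libraries a group, where an exact two-sided permutation test of 2 against 2 cannot go below 0.333.

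Of the mean *Klrk1* FPKM lost after stimulation, 63.2% was assigned to a transcript that keeps an intron. Klrk1-204, a retained-intron transcript of 1182 bases that is not annotated as coding, was estimated at 220 and 160 FPKM in the Unstimulated, 1.09 and 1.74 in the Control and 1.98 and 0.0760 in the SMF libraries. The coverage behind it came almost entirely from 1 exon, its exon 3 of 1029 bases at chr6:129616493-129617521, which spans exon 3, the 709 bases of intron 3 and exon 4 of Klrk1-205 and runs into the next intron. That exon had a depth of 33.8 and 24.1 in the Unstimulated libraries and at most 0.273 in the 4 stimulated ones, whereas exons 1 and 2 of the same transcript had at most 0.0739 in the Unstimulated libraries. The files give 1 mean per exon, so where in those 1029 bases the reads lay was not seen.

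Retained-intron transcripts as a class did not move in this way. They took 56.2% and 58.5% of *Klrk1* FPKM in the Unstimulated, 20.5% and 17.3% in the Control and 3.97% and 16.5% in the SMF libraries. Over all genes they took between 8.53% and 10.3% of summed FPKM in every library. Among 4895 tested genes above 0 in all 6 libraries that have such a transcript annotated, 4.17% lost at least as large a share as *Klrk1* did. This loss was taken between the Unstimulated and the stimulated libraries. A share of 0 was allowed, and a gene with a share of 0 in the Unstimulated libraries could not lose any. No other annotated exon overlaps an exon of *Klrk1* on either strand.

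The sequences of exon 2 and of both ends of intron 3 are shown from the GENCODE M21 transcripts Klrk1-205 and Klrk1-204, on the minus strand of GRCm38. The start codon is in capitals in the coding part of exon 2 at chr6:129621135-129621240, and the GT and AG that bound the intron are in capitals in its 5′ end with exon 3 (chr6:129617443-129617521) and its 3′ end with exon 4 (chr6:129616734-129616813).
Klrk1 exon 2, coding part: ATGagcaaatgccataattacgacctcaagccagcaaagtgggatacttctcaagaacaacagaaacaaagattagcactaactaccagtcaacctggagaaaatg
Klrk1 exon 3 and start of intron 3: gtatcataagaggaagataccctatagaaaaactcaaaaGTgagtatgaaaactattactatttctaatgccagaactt
End of Klrk1 intron 3 and start of exon 4: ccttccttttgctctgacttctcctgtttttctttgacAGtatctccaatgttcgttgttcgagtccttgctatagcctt

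Counting only the coding part of exons left *Klrk1* lower after stimulation but by less. Coverage of every transcript was counted there, so that of Klrk1-204 over exons 3 and 4 was still included. The depth over coding exons, in covered bases per kilobase of coding length and per Mb covered in the library, was 230 and 187 in the Unstimulated, 50.6 and 103 in the Control and 53.9 and 108 in the SMF libraries. The Unstimulated libraries still lay above the other 4. The log2 fold change was then -1.51 (SE 0.46, adjusted p = 0.096 with limma) in Control against Unstimulated and -1.43 (SE 0.46, adjusted p = 0.0617) in SMF against Unstimulated. The coding transcripts also differed between libraries: Klrk1-205 carried 200 and 97.0 FPKM in the Unstimulated libraries, and Klrk1-202, which lacks the first 18 bases of exon 5, was listed at 0 in both Unstimulated libraries and in Control replicate 1 and was at 50.7 FPKM in Control replicate 2 and 58.9 and 53.8 in the SMF libraries.

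**Figure D2:**
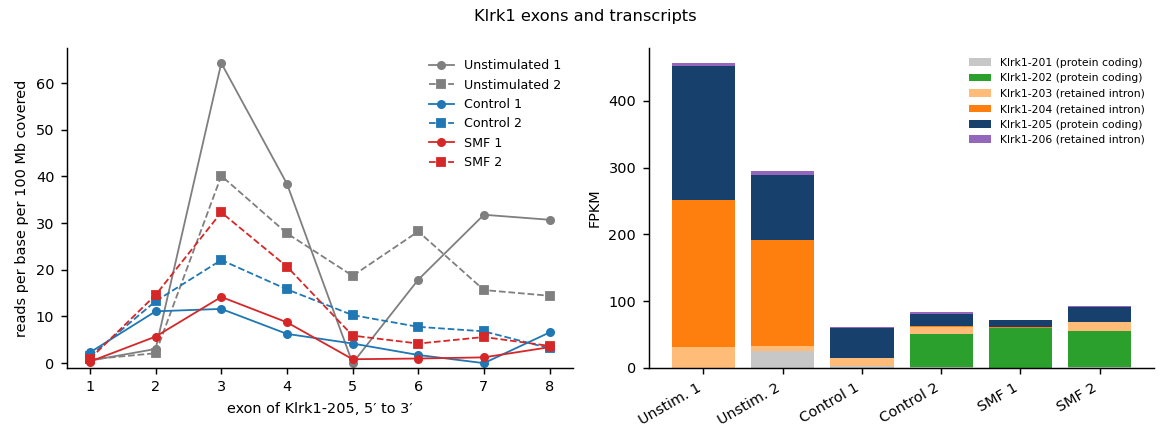
Left, depth in reads per base for each 100 Mb covered at the 8 exons of Klrk1-205 from 5′ to 3′, a line for each library; right, the FPKM of the 6 annotated Klrk1 transcripts stacked for each library. The Unstimulated libraries are lowest at exon 2 (3.04 and 2.13) and highest at exons 3, 4 and 6 to 8. The depth at exons 3 and 4 includes the coverage of Klrk1-204. The orange band of Klrk1-204 (220 and 160 FPKM) is almost absent in the stimulated libraries.

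*Klrd1* (ENSMUSG00000030165.16, chr6:129591782-129598775, plus strand) encodes CD94, the common partner of the NKG2 chains. Its level was 146 and 73.8 FPKM in the Unstimulated, 154 and 104 in the Control and 93.3 and 142 in the SMF libraries. The 3 groups overlapped. The log2 fold change was 0.28 in Control against Unstimulated (95% confidence interval -0.74 to 1.31, adjusted p = 0.713 with limma) and -0.13 in SMF against Control (-1.16 to 0.89, adjusted p = 0.897), intervals wide enough to hold a 2-fold change in either comparison. The coding transcript Klrd1-202 was the largest of its 6 annotated transcripts in every library, at 65.0 and 43.5 FPKM in the Unstimulated, 142 and 57.6 in the Control and 87.6 and 93.2 in the SMF libraries. Klrd1-205, annotated as a target of nonsense-mediated decay, varied within every stimulated group, from 0 to 33.1 FPKM in the Control and from 0 to 25.1 FPKM in the SMF libraries.

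*Klrc1* (ENSMUSG00000030167.15, chr6:129666015-129678973, minus strand) encodes NKG2A, the inhibitory chain that pairs with CD94. Its level was 0 and 1.50 FPKM in the Unstimulated, 20.3 and 51.6 in the Control and 48.2 and 73.9 in the SMF libraries. Every stimulated library lay above both Unstimulated ones, and the Control and SMF libraries overlapped. *Klrc1* rose 21.2-fold on the log2(FPKM + 1) scale in Control against Unstimulated (log2 fold change 4.40, SE 0.65, adjusted p = 0.0182 with limma) and 38.4-fold in SMF against Unstimulated (5.26, SE 0.65, adjusted p = 0.00609). Control minus Unstimulated was 4.41 within the first run and 4.40 within the second. Beside its partner *Klrd1*, which was not called, *Klrc1* went from 0% and 2.03% of the *Klrd1* FPKM in the Unstimulated libraries to 13.2% and 49.6% of it in the Control and 51.7% and 51.9% in the SMF libraries. Of the 6 exons of Klrc1-202, only exons 5 and 6 were covered in Control replicate 1, the least deep library. Control replicate 2 and both SMF libraries had coverage in all 6. In Control replicate 1 all 20.3 FPKM was assigned to Klrc1-201, whose exons outside these 6 were not examined.

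*Klrc2* (ENSMUSG00000052736.15, chr6:129647496-129660689, minus strand) encodes NKG2C, the activating counterpart of NKG2A. Its level was low throughout, at 2.10 and 0.359 FPKM in the Unstimulated, 5.29 and 4.89 in the Control and 2.90 and 3.45 in the SMF libraries. In FPKM the Control libraries were the highest and the Unstimulated the lowest, with no overlap between the groups. Over coding exons *Klrc2* overlapped between all 3 groups, with a depth of 4.37 and 0.0866, 3.46 and 6.92, and 0.634 and 4.87 in the Unstimulated, Control and SMF libraries. It was called higher in Control against Unstimulated (log2 fold change 1.57, SE 0.60, unadjusted p = 0.0385, adjusted p = 0.16 with limma), and this call was lost in 13 of 17 alternatives. With the replicate number as a block the unadjusted p was 0.052, and without any one of the libraries other than Unstimulated replicate 1 it lay between 0.0722 and 0.103. Its reads may be split with near copies, since Klrc1-202 and Klrc2-205 share a run of 98 identical bases and Klrc2-205 and Klrc3-201 a run of 203. In Control replicate 1 the 5.29 FPKM stood entirely in Klrc2-206, a retained-intron transcript that was at 0 in the other 5 libraries.

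*Nkg7* (ENSMUSG00000004612.9, chr7:43437073-43438249, plus strand) encodes a membrane protein of cytotoxic granules that takes part in their release. Its level was 12.0 and 27.7 FPKM in the Unstimulated, 77.2 and 92.6 in the Control and 136.5 and 141 in the SMF libraries. The 3 groups did not overlap and rose in that order. *Nkg7* rose 4.43-fold in Control against Unstimulated (log2 fold change 2.15, SE 0.41, adjusted p = 0.0327 with limma) and 7.24-fold in SMF against Unstimulated (2.86, SE 0.41, adjusted p = 0.00877). Control minus Unstimulated was 2.59 within the first run and 1.71 within the second. In SMF against Control the log2 fold change was 0.71 (95% confidence interval -0.30 to 1.71, unadjusted p = 0.136, adjusted p = 0.371), which did not pass the test. The coding transcript Nkg7-203 was at 45.0 and 67.6 FPKM in the SMF libraries and at 0 in the other 4, while Nkg7-201 overlapped between SMF (91.5 and 65.9) and Control (29.8 and 84.3).

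*Klrb1c* (ENSMUSG00000030325.16, chr6:128778485-128789215, minus strand), the NK1.1 gene, and *Ncr1* (ENSMUSG00000062524.4, chr7:4337724-4345164, plus strand), the NKp46 gene, are the defining NK cell genes of the 8. *Klrb1c* was at 3.04 and 6.71 FPKM and *Ncr1* at 10.8 and 0.947 FPKM in the Unstimulated libraries, and both were listed at 0 in the 4 stimulated libraries. No fold is given against groups listed at 0. The coverage of *Ncr1* lay in exons 5 and 6 of Ncr1-202 in Unstimulated replicate 1 and in exon 6 alone in replicate 2, and *Klrb1c* was covered in 2 of 6 exons of Klrb1c-201 in replicate 1 and 5 of 6 in replicate 2. An exon of *Klrb1c* overlaps *Gm44511* on the same strand. *Klrg1* (ENSMUSG00000030114.8, chr6:122270596-122282882, minus strand) was listed at 0 in all 6 libraries.

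The order of the 8 genes by FPKM, a scale per length on which genes can be compared, followed from these levels. In the Unstimulated group it was *Klrk1*, *Klrd1*, *Nkg7*, *Ncr1*, *Klrb1c*, *Klrc2*, *Klrc1* and *Klrg1*, where *Ncr1* and *Klrb1c*, *Klrc2* and *Klrc1*, and *Klrc1* and *Klrg1* had overlapping libraries. In the Control group it was *Klrd1*, *Nkg7*, *Klrk1*, *Klrc1* and *Klrc2*, and *Nkg7* and *Klrk1* overlapped. In the SMF group it was *Nkg7*, *Klrd1*, *Klrk1*, *Klrc1* and *Klrc2*, where *Nkg7* and *Klrd1*, and *Klrk1* and *Klrc1*, overlapped.

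**Figure D3:**
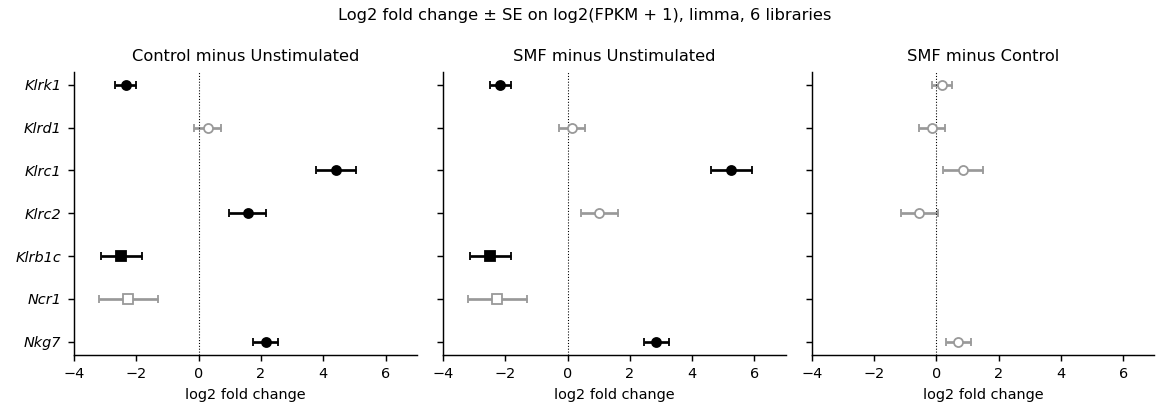
Fitted log2 fold change with its SE for the 7 tested members in the 3 comparisons; filled black points were called and open grey points were not. Squares mark *Klrb1c* and *Ncr1*, which are listed at 0 in both stimulated groups, so that their fitted values depend on the pseudocount and no point is drawn for them in SMF minus Control.

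In SMF against Control 0 of the 5 members above 0 in every group were called by limma, 0 had an unadjusted p under 0.05, and 0 were called under any of 16 alternatives. *Klrb1c* and *Ncr1*, at 0 in both groups, could not differ there. The log2 fold changes were 0.19 for *Klrk1* (95% confidence interval -0.60 to 0.98), 0.86 for *Klrc1* (-0.72 to 2.43) and -0.55 for *Klrc2* (-2.001 to 0.91), so changes of 2-fold lie inside the intervals of *Klrc1* and *Klrc2*. The direction depended on the scaling of the libraries. Scaled to one summed FPKM over the CD8 T cell markers, the log2 fold change was -0.27 for *Klrc1*, -0.95 for *Klrk1* and -0.44 for *Nkg7*, where each was above 0 as deposited, and *Klrd1* and *Klrc2* were at -1.29 and -1.48. That scaling moved the median of all tested genes in this comparison from 0.32 to -0.53. As deposited, 5 of the 8 CD8 T cell markers were themselves called higher in SMF than in Control, beside 12.5% of tested genes.

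The signalling partners of the receptors were read from a list of 20 adaptors and proximal signalling molecules, of which 18 were tested. DAP12 (*Tyrobp*), at 59.9 and 52.7 FPKM in the Unstimulated libraries, the Fc receptor gamma chain (*Fcer1g*), at 4.60 and 6.76, and the kinase *Syk*, at 14.5 and 8.25, were each listed at 0 in all 4 stimulated libraries. These 3 passed the filter through the Unstimulated libraries alone and had to differ. Of the other 15, 0 were called higher and 3 lower in Control against Unstimulated (beside 12.3% and 12.6% of tested genes), 2 and 0 in SMF against Unstimulated (beside 22.4% and 14.8%), and 2 and 0 in SMF against Control (beside 12.5% and 5.72%). DAP10 (*Hcst*), through which mouse NKG2D signals, was at 23.4 and 29.0 FPKM in the Unstimulated, 8.97 and 0 in the Control and 8.90 and 7.60 in the SMF libraries. *Hcst* was called lower in Control against Unstimulated (log2 fold change -3.10, adjusted p = 0.117 with limma) and not in SMF against Unstimulated (-1.55, adjusted p = 0.31). The phospholipase *Plcg2* was at 5.41 and 2.04, 0 and 0.623, and 1.70 and 0.766 FPKM in the same order and was also called lower in Control against Unstimulated (-1.79, adjusted p = 0.161). *Plcg2* passed the filter through the Unstimulated libraries, so this lower call was close to fixed in advance.

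Kinases and scaffolds that the T cell receptor uses differed among themselves. *Zap70*, the T cell kinase related to Syk, was at 24.8 and 15.8 FPKM in the Unstimulated, 34.5 and 41.3 in the Control and 62.8 and 47.9 in the SMF libraries and was called higher in SMF against Unstimulated (log2 fold change 1.43, adjusted p = 0.0342 with limma). *Lcp2*, the scaffold SLP-76, was at 16.0 and 17.3, 28.8 and 38.2, and 88.2 and 94.96 FPKM in the same order, with no overlap between the groups, and was called higher in SMF against Unstimulated (2.39, adjusted p = 0.00611) and in SMF against Control (1.44, adjusted p = 0.137). The Src-family kinase *Fyn* was at 74.6 and 48.7, 21.3 and 25.6, and 83.7 and 62.5 FPKM and was called lower in Control against Unstimulated (-1.33, adjusted p = 0.0654) and higher in SMF against Control (1.59, adjusted p = 0.14). The kinase *Lck* and the receptor chain *Cd247*, chosen after their values were seen, were at -0.37 and -0.11 in Control against Unstimulated and were not called. Scaled to the CD8 T cell markers, the counts of the 15 went to 2 higher and 0 lower in Control against Unstimulated, 1 and 2 in SMF against Unstimulated, and 0 and 1 in SMF against Control. In Control against Unstimulated 1 was called higher without either Unstimulated library or without Control replicate 1, and 1 lower without Unstimulated replicate 1. In SMF against Unstimulated 1 was called lower without Unstimulated replicate 2, SMF replicate 2 or either Control library.

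Ligands of these receptors were read in the same cells. Of 19 listed, 15 were in the files and 9 were tested, 8 of them above 0 in every group. Of these 8, 1 was called higher and 2 lower in Control against Unstimulated (beside 12.3% and 12.6% of tested genes). The counts were the same in SMF against Unstimulated (beside 22.4% and 14.8%), and 0 in SMF against Control (beside 12.5% and 5.72%). The NKG2D ligand *H60b* was at 49.9 and 47.0 FPKM in the Unstimulated, 0 and 4.30 in the Control and 0 and 2.97 in the SMF libraries, and was called lower in Control against Unstimulated (log2 fold change -4.42, adjusted p = 0.0468 with limma). *Ulbp1* (MULT-1), another NKG2D ligand, was at 1.63 and 3.09, 9.005 and 6.495, and 12.1 and 12.2 FPKM in the same order and was called higher in Control against Unstimulated (log2 fold change 1.40, adjusted p = 0.118) and in SMF against Unstimulated (4.01-fold, adjusted p = 0.0288). *Clec2i*, a C-type lectin of the family that NKR-P1 receptors bind, was at 34.2 and 20.5, 6.56 and 7.52, and 6.23 and 7.65 FPKM and was called lower in Control against Unstimulated (log2 fold change -1.78, adjusted p = 0.0545) and in SMF against Unstimulated (-1.80, adjusted p = 0.0292). Its relative *Clec2g* was at 39.6 and 15.6 FPKM in the Unstimulated libraries, at 8.89 and 0 in the SMF libraries, and listed at 0 in both Control ones. *H2-T23*, which encodes Qa-1, the ligand of CD94 with NKG2A or NKG2C, was at 48.8 and 53.2 FPKM in the Unstimulated, 61.6 and 58.3 in the Control and 82.4 and 103 in the SMF libraries and was not called. Without Unstimulated replicate 1, 0 of the 8 were called higher and 1 lower in Control against Unstimulated, and the higher call was also lost without Control replicate 1 or either SMF library. Without Unstimulated replicate 2, 1 was called lower in each comparison with the Unstimulated group, and without SMF replicate 1, 2 were called higher in SMF against Unstimulated.

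Among 17 other innate-type receptors outside the Klr family, 14 were tested, 13 of them above 0 in every group. *Tigit*, an inhibitory receptor for nectin-type ligands and the exception, was listed at 0 in both Unstimulated libraries and was at 9.24 and 25.1 FPKM in the Control and 38.6 and 31.2 in the SMF libraries. Of the 13, 3 were called higher and 2 lower in Control against Unstimulated (beside 12.3% and 12.6% of tested genes). In SMF against Unstimulated 4 and 2 were (beside 22.4% and 14.8%), and in SMF against Control 1 and 0 (beside 12.5% and 5.72%). *Crtam*, an adhesion receptor of activated cytotoxic cells, rose in Control against Unstimulated, from 3.27 and 4.03 FPKM to 18.4 and 17.2 (log2 fold change 2.02, adjusted p = 0.0272 with limma). *Il2rb*, the beta chain shared by the IL-2 and IL-15 receptors, was at 18.8 and 13.0 FPKM in the Unstimulated, 39.4 and 38.8 in the Control and 39.1 and 37.1 in the SMF libraries and was called higher in both stimulated groups. *Slamf7*, a SLAM-family receptor, was at 5.23 and 2.28, 11.8 and 11.5, and 9.59 and 16.3 FPKM and was called higher in both as well. *Cd160* was called higher in SMF against Unstimulated alone (log2 fold change 1.27, adjusted p = 0.0968), whereas the SLAM-family receptor *Slamf6* (-1.70, adjusted p = 0.126) and the IL-18 receptor chain *Il18r1* (-1.35, adjusted p = 0.0604) were called lower there.

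*Cd226* (DNAM-1), the activating counterpart of TIGIT, was at 21.3 and 17.4 FPKM in the Unstimulated, 3.64 and 7.87 in the Control and 26.7 and 24.4 in the SMF libraries, and was called lower in Control against Unstimulated (-1.66, adjusted p = 0.0703 with limma) and higher in SMF against Control (2.05, adjusted p = 0.14). The inhibitory receptor *Lilrb4a* was called lower in Control against Unstimulated (-1.40, adjusted p = 0.132). Scaled to the CD8 T cell markers, the counts of the 13 receptors went to 5 higher and 1 lower in Control against Unstimulated, 1 higher in SMF against Unstimulated, and 0 higher and 5 lower in SMF against Control. The count of lower receptors was 0 in both comparisons with the Unstimulated group without Unstimulated replicate 1, and 1 in Control against Unstimulated without Control replicate 2. In SMF against Unstimulated 2 were called higher without Unstimulated replicate 2 or SMF replicate 2, and 1 was called lower without Unstimulated replicate 2, SMF replicate 1 or either Control library. In SMF against Control 2 were called higher without SMF replicate 1 and 1 lower without SMF replicate 2.

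**Figure D4:**
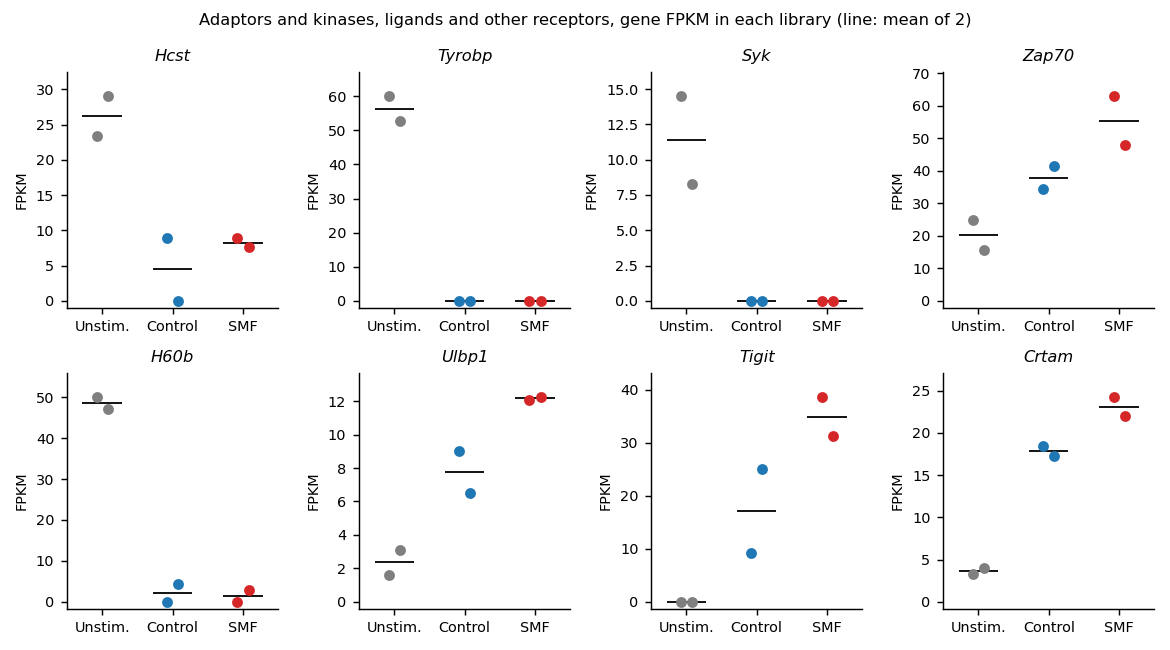
Each panel plots the gene FPKM of an adaptor or kinase (*Hcst*, *Tyrobp*, *Syk*, *Zap70*), an NKG2D ligand (*H60b*, *Ulbp1*) or another innate-type receptor (*Tigit*, *Crtam*) on a linear axis from 0, with a point for each library and a line at the group mean. *Tyrobp* and *Syk* are at 0 in the 4 stimulated libraries, and *Tigit* is at 0 in both Unstimulated ones.

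Transcription factors that govern NK-type receptor genes were read from a list of 14, of which 12 were tested. In Control against Unstimulated 2 were called higher and 2 lower (beside 12.3% and 12.6% of tested genes). The counts were 1 and 3 in SMF against Unstimulated (beside 22.4% and 14.8%) and 0 in SMF against Control (beside 12.5% and 5.72%). *Runx3*, a Runx factor of CD8+ T cells, was at 9.51 and 18.7 FPKM in the Unstimulated, 55.8 and 28.6 in the Control and 31.7 and 22.6 in the SMF libraries and was called higher in Control against Unstimulated (log2 fold change 1.51, adjusted p = 0.114 with limma). *Nfil3*, a factor that NK cell development needs, was at 0 and 1.13, 7.71 and 7.19, and 2.78 and 8.89 FPKM in the same order and was called higher in Control against Unstimulated (2.54, adjusted p = 0.0762) and in SMF against Unstimulated (2.07, adjusted p = 0.0761). *Eomes*, a T-box factor of memory and NK cells, was at 26.9 and 12.7, 10.3 and 5.73, and 2.97 and 5.26 FPKM in the same order and was called lower in SMF against Unstimulated (-1.97, adjusted p = 0.0489). *Bcl11b*, a factor of T cell identity, was at 21.2 and 13.5, 2.56 and 4.22, and 6.16 and 5.18 FPKM, and *Tcf7*, a factor of resting T cells, at 95.1 and 148, 19.98 and 33.5, and 44.1 and 19.7 FPKM. Both were called lower in each stimulated group. Without Unstimulated replicate 1 or Control replicate 1, 0 of the list were called higher in Control against Unstimulated, and without SMF replicate 1 or Control replicate 2, 1 was. The higher call in SMF against Unstimulated was lost without Unstimulated replicate 1, SMF replicate 2 or either Control library, and without Control replicate 2, 1 was called higher in SMF against Control. Without Unstimulated replicate 2, 1 was called lower in Control against Unstimulated, and without Unstimulated replicate 1 or SMF replicate 1, 1 was called lower in SMF against Unstimulated.

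The files hold 24 further genes whose symbol begins with Klr, and 10 of them were listed at 0 in all 6 libraries. Of the 6 that were tested, *Klra13-ps* was called lower in both comparisons with the Unstimulated group and *Klra6* in SMF against Unstimulated. *Klra13-ps*, an annotated pseudogene of the Ly49 family, was at 86.3 and 48.6 FPKM in the Unstimulated libraries and listed at 0 in the other 4, so that it had to differ. Ly49 genes are close copies of one another, so which of them its reads came from is uncertain. *Klra6* was at 9.22 and 6.18 FPKM in the Unstimulated libraries and at 11.2 and 0 in the Control and 0 in both SMF libraries.

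Markers of several other cell types were highest in the Unstimulated libraries, as *Klrk1* was. The 14 NK cell markers, which include *Klrb1c*, *Ncr1*, *Tyrobp* and *Fcer1g*, summed to 105 and 86.4 FPKM in the Unstimulated, 10.5 and 11.5 in the Control and 3.88 and 12.2 in the SMF libraries, with 9 and 11 genes above 0 in the Unstimulated libraries and 2 to 4 in the stimulated ones. Most of the stimulated sums was *Nfil3*, which was higher there. The 8 B cell markers summed to 222 and 172 FPKM in the Unstimulated libraries and to between 3.37 and 28.6 in the stimulated ones. All 4 that were above 0 in every group were called lower in Control (beside 12.6% of tested genes) and in SMF (beside 14.8%). Among these 4, *Cr2* and *Ighd* were at no more than 1.17 and 2.51 FPKM in any stimulated library. They passed the filter through the Unstimulated libraries, so their lower calls were close to fixed in advance. The 10 myeloid markers summed to 142 and 169 FPKM against 47.0 to 54.3. Most of the stimulated sum was *Csf1r*, which was at 68.5 and 63.9 FPKM in the Unstimulated and between 41.1 and 53.8 in the stimulated libraries and was not called, whereas *Lyz2* and *Adgre1* were listed at 0 in all 4 of these. *Cd68* was at 9.49 and 10.2 FPKM in the Unstimulated libraries, 0 in both Control and 6.42 and 0.892 in both SMF libraries. The sums of the 4 CD4 T cell markers overlapped between the groups, at 31.2 and 14.5, 12.8 and 22.8, and 12.8 and 13.5 FPKM, of which *Foxp3* made up 20.7 and 4.92, 11.9 and 19.3, and 11.9 and 11.8. *Cd40lg* was at 6.21 and 2.34 FPKM in the Unstimulated libraries and listed at 0 in the 4 stimulated ones. *Cd4* was at 2.05 and 4.68, 0 and 2.18, and 0 and 0 FPKM in the same order of groups. *Zbtb7b* was at 2.25 and 2.54, 0.908 and 1.37, and 0.890 and 1.72 FPKM, highest in the Unstimulated libraries. The 6 erythroid markers summed to 18.3 and 21.8 FPKM in the Unstimulated libraries and 1.51 to 10.1 in the stimulated ones, and 4 gamma delta and NKT cell markers to 11.8 and 9.10 against 0.856 to 2.20. The part of NK, B or myeloid cells in the Unstimulated levels of *Klrk1*, *Tyrobp*, *Syk* and *H60b* was not tested, and in these bulk libraries fewer cells of a type and less RNA per cell cannot be told apart.

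**Figure D5:**
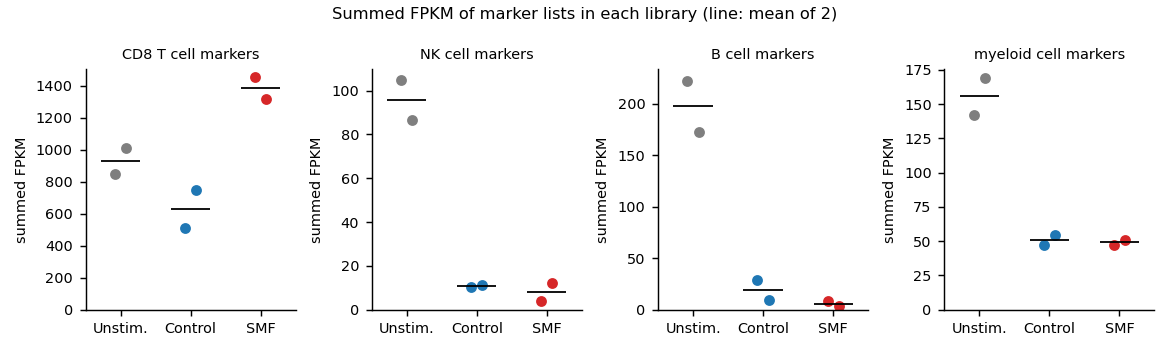
Summed FPKM of the CD8 T, NK, B and myeloid cell marker lists, a point for each library and a line at the mean of 2. The NK and B cell sums are highest in the Unstimulated libraries (105 and 86.4, and 222 and 172) and the CD8 T cell sum is highest in the SMF libraries (1455 and 1316).

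For each tested member the 3 genes most like it over the 6 libraries were taken by Pearson's r of log2(FPKM + 1), a description over 6 points that share libraries, depth and groups. *Klrk1* was most like *Cnp* (r = 0.996), *Frat2* and *Tmem63a*, *Klrc1* like *Mis18a* (r = 0.999), *Zc3hc1* and *Eno1*, and *Nkg7* like *Hsp90ab1* (r = 0.997), *Arl1* and *G2e3*. *Klrd1*, which varied within groups, was most like *Gm8692* (r = 0.980), *Aspscr1* and *Cnot7*, and *Klrc2* like *Lurap1* (r = 0.993), *Fam219b* and *Gm26643*. *Klrb1c* (*Ighg2c*, *Mcemp1* and *A530021J07Rik*) and *Ncr1* (*Gpr137b*, *Gm26456* and *Gm44140*) were matched by genes that were likewise at 0 in the 4 stimulated libraries, where 2 values set r.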

How the data were processed

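RNA was measured in 6 libraries of mouse splenic CD8+ T cells, 2 for each of 3 groups taken from the labels, made from total RNA as stranded libraries. The submitters' processing notes name Trimmomatic 0.36, HISAT2, StringTie and mm10, and the file headers give StringTie 1.3.5 on GRCm38 with GENCODE annotation, restricted to annotated transcripts. The authors deposited 1 file per library with FPKM, TPM and coverage for 137767 transcripts. FPKM and TPM are normalized for length and library size, and deposited coverage is the mean reads per base without normalization. The files hold no read counts, so a value of 0 is given only as listed at 0 and no counting interval is given. Another deposited table, with 3 columns of gene values, could not be tied to the samples and was not used here.

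FPKM was summed over the transcripts of each gene. The 14991 of 54446 genes that reached a mean of 1 FPKM were fitted on log2(FPKM + 1) with limma 3.58.1 in R 4.3.3, the 3 groups together (3 residual degrees of freedom) and with the variance trend. A fold change on this scale understates the change of low genes. The procedure was tested on simulated data. Depth is coverage times length summed over transcripts. The depth of an exon is the coverage of all transcripts of the gene there, divided by the depth of the library. Coding exons came from GENCODE M21 and upstream sequences from RefSeq (GRCm38.p6). Other steps ran in Python 3.11.15 (pandas 2.3.3, numpy 2.4.6).

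The members and the lists of adaptors, ligands, other receptors, transcription factors and cell markers were chosen with earlier results of these data known, so no test over a list is given. All 8 members are named, with the list genes that were called in any comparison (at most the 6 largest changes for each list and comparison), the genes at 0 that set a group apart, and the 3 genes most like each member. *H2-T23*, *Lck*, *Cd247* and the marker genes were named after their values were seen. Counts over the members and over the first 4 lists cover genes above 0 in at least 1 library of every group, since a gene that passed the filter through 1 group had to differ. This rule keeps genes near 0 in 1 group, such as *Klrc1*, *Plcg2* and *Nfil3*, whose calls were close to fixed in advance. Shared replicate numbers of Unstimulated and Control libraries go with a shared month of the dated folder, called a run here, in the file headers. The deviations of replicate 1 from the group mean correlated at 0.0963 between these groups, at 0.0301 between Unstimulated and SMF and at 0.0206 between Control and SMF over 14991 genes. Alternatives were another pseudocount (0.1), no filter, a common median, TPM, no variance trend, a replicate block, 2 groups alone, calls by adjusted p and leaving out each library. A scaling to the CD8 T cell markers, depth over coding exons and the block on the Unstimulated and Control libraries alone were added after the data were seen.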

Additional observations from a re-analysis of the deposited data

How the results depend on the processing

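*Klrk1*, *Klrc1* and *Nkg7* kept their direction and their call against the Unstimulated libraries under every alternative run, with log2 fold changes for Control against Unstimulated of -2.66 to -1.51, 3.74 to 6.34 and 1.58 to 2.73. The value of -1.51 for *Klrk1* came from coding exons alone. The higher calls of *Klrc1*, which passed the filter through the stimulated libraries, were close to fixed in advance. Of the 5 members above 0 in every group, leaving out 1 library at a time gave 2 to 3 higher and 1 lower in both comparisons with the Unstimulated libraries and 0 in SMF against Control. With *Klrb1c* and *Ncr1*, which had to differ, the lower count was 2 to 3, or 1 by adjusted p in Control against Unstimulated, where *Klrb1c* had 0.0695, and the medians of the 7 were -0.20 to 0.77 (Control against Unstimulated), 0.00 to 0.17 (SMF against Control) and -0.34 to 0.64 (SMF against Unstimulated). With the replicate number as a block, over 6 libraries, *Klrc2* alone lost its call in Control against Unstimulated (unadjusted p = 0.052), the count of higher members went from 3 to 2, and no other member's call changed. That block does not follow the runs for SMF. It set the SMF libraries with those of June and November 2017, though both were of October 2018. On the Unstimulated and Control libraries alone the block gave adjusted p values of 0.155 to 0.157 for *Klrk1*, *Klrc1* and *Nkg7*, in a fit with fewer libraries. *Ncr1*, not called as reported, was called in 5 alternatives of Control against Unstimulated: the pseudocount of 0.1, no filter, TPM, no variance trend and without Unstimulated replicate 2.

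Directions that turned were all of members not called. In SMF against Control, *Klrk1* was at -0.15 with every library shifted to one median, -0.044 without Control replicate 1 and -0.95 scaled to the CD8 T cell markers, *Klrd1* at 0.17 without SMF replicate 1 and 0.15 without Control replicate 1, *Klrc1* at -0.27 and *Nkg7* at -0.44 scaled to the markers. *Klrd1* was at -0.20 without Unstimulated replicate 2 in Control against Unstimulated, and in SMF against Unstimulated at -0.10 with one median, -0.34 without Unstimulated replicate 2, -0.15 without SMF replicate 2 and -0.43 scaled to the markers. The scaling to the markers moved the median of all tested genes from -0.05 to 0.43 in Control against Unstimulated and from 0.27 to -0.17 in SMF against Unstimulated. Of the counts over the companion lists and the medians over the 5 members above 0, 91 of 438 moved by more than 1.5 times or more than the replicate spread, and the cause was not tested. Depth limits what a 0 means in Control replicate 1, where 19.7% of tested genes were listed at 0, against 9.17% in Control replicate 2.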
